A study of Mus musculus with 6 samples.

Results

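Carbonic anhydrases are zinc enzymes that interconvert carbon dioxide and bicarbonate. The genes described are Car1, Car2, Car3, Car4, Car8, Car9, Car13 and Car14, 8 of 18193 genes measured, taken with every probe set that the platform annotation pairs with 1 of these symbols alone, 16 probe sets in all. The RNA was that of Ter119-positive cells taken from mouse fetal livers at embryonic day 14.5, in 3 wild type and 3 STAT5 knockout pools. Each pool joined the cells of 3 to 5 embryos of 1 genotype, and each was hybridised to its own Affymetrix Mouse430_2 array. The labels name the knockout only as STAT5 KO, with no allele, strain or promoter, and neither group received an agent. Ter119 is a surface antigen of maturing erythroid cells, so the pools hold erythroblasts of several stages with whatever other cells passed the isolation.

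In red cells these enzymes let carbon dioxide travel as bicarbonate. Inside the cell a cytosolic carbonic anhydrase hydrates the gas, the anion exchanger of the membrane (Slc4a1) passes bicarbonate out in exchange for chloride, and hemoglobin buffers the proton. Car1 and Car2 encode the cytosolic enzymes of red cells, Car2 the faster one. Car3, another cytosolic form with low activity, is known from skeletal muscle, fat and liver, and Car13 is a further cytosolic form. Car4, Car9 and Car14 encode enzymes held at the cell surface, Car9 being a target of the hypoxia-inducible factor HIF. Car8 encodes a related protein without enzyme activity.

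Promoter sequences were matched in the RefSeq promoter table of the build GRCm38.p6 for 3 of the 8 genes, Car4, Car9 and Car14. They are printed because the HIF pathway bears on Car9 and the deleted factors bind DNA. Each runs 5′ to 3′ on the gene's strand over 300 bases, of which 250 lie before the start of transcription. Capitals mark ACGTG, the core of the hypoxia response element, read on either strand. The windows are chr4:43506776-43507075 on the plus strand for Car9, chr3:95904636-95904935 on the minus strand for Car14 and chr11:84957504-84957803 on the plus strand for Car4.
Car9: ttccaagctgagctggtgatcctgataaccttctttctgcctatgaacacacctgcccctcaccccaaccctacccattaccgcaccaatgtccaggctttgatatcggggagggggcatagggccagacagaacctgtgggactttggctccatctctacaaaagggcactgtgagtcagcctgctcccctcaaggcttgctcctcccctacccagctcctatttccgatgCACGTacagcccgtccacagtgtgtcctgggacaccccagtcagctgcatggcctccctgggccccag
Car14: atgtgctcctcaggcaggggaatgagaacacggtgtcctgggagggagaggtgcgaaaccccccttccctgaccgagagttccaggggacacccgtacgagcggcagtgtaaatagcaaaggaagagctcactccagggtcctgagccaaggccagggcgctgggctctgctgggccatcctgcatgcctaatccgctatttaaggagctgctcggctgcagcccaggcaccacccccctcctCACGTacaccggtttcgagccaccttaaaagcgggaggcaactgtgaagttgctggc
Car4: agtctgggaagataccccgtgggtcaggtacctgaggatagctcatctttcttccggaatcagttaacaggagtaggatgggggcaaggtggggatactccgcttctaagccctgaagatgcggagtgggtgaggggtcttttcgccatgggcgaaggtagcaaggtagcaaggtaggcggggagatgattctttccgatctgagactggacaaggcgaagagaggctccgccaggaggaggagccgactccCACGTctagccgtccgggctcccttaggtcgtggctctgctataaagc

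Each of the 3 windows holds ACGTG 1 time, on the reverse strand. Of 32851 promoters of this length, 19.6% hold it at least 1 time on either strand. The palindrome TTCNNNGAA, the usual form of a STAT dimer site, has 0 matches in the 3 windows and occurs in 8.3% of all promoters. GATAA, the core read by GATA factors, was found 1 time, in the Car9 window, against 25.4% of all promoters. CACCC, bound by Krüppel-like factors, matched 2 times in Car9, 2 times in Car14 and 1 time in Car4, and 57.5% of promoters hold it. All were searched on both strands, and none overlaps another. These are matches of letters and show no binding.

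The deposited values are intensities on a linear scale, called signals. Median signals ranged from 175.4 to 215.8 over the 6 arrays. Signals under 162.5, the 95th percentile of the control probe sets for Bacillus subtilis transcripts, are called below the control level (7.34 on the log2 scale). Of 9 defining erythroid genes 6 were measured (Hbb-b2, Alas2, Slc4a1, Gata1, Klf1 and Epb42), all with signals of at least 6056 in every array. All 4 probe sets of Stat5a and Stat5b read lower in each knockout array than in each wild type array (log2 differences from -3.77 to -1.29). How the deleted stretch lies to these probes was not given in the sources used here. Groups of 3 limit the precision, and an exact permutation test of 3 against 3 cannot go below a two-sided p of 0.1. Signals of different genes come from different probes and cannot be ranked against each other.

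No carbonic anhydrase gene passed the test between genotypes. The data show higher Car1 signals in knockout pools with overlapping ranges, lower Car3 and Car14 signals without overlap, and Car2 and Car9 signals close in both. By limma with Benjamini-Hochberg adjustment over all genes, 0 of 8 genes were called (adjusted p between 0.518 and 0.968), where 0.044% of all genes were. With a mean-variance trend in the model the count was again 0 of 8 (0.212 to 0.977), against 0.44% of all genes. At an unadjusted p under 0.05 stood 4 of the 8, Car14, Car1, Car13 and Car3, and 1620 of all 18193 genes. Taken one by one, 0 of the 16 probe sets were called, with 0% of all probe sets called without the trend and 0.155% with it. Of the 16, 1 reached the submitters' own cutoff, an unadjusted p under 0.05 together with more than 1.5-fold, a dim Car8 probe set lower in knockout. Over all probe sets, 3.05% reached it lower and 2.14% higher in knockout.

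Groups did not overlap for 4 of the 8 genes at their brightest probe set, Car3, Car8, Car13 and Car14, each lower in knockout, where 9.85% of all genes lay lower and 7.02% higher in this way. Among the 16 probe sets 6 lay lower and 0 higher without overlap, against 8.95% and 6.84% of all probe sets. After median centring of each array only Car3 and Car14 of the 8 were apart, as after quantile normalization. Of all genes 6.63% then lay lower and 9.02% higher with median centring, and 9.02% lower and 7.77% higher with quantile normalization, so the balance of directions turned with median centring. The median difference of the 8 genes, knockout minus wild type on the log2 scale, was -0.31, where that of all genes was -0.08. After median centring these medians were -0.19 and 0.03.

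**Figure D1:**
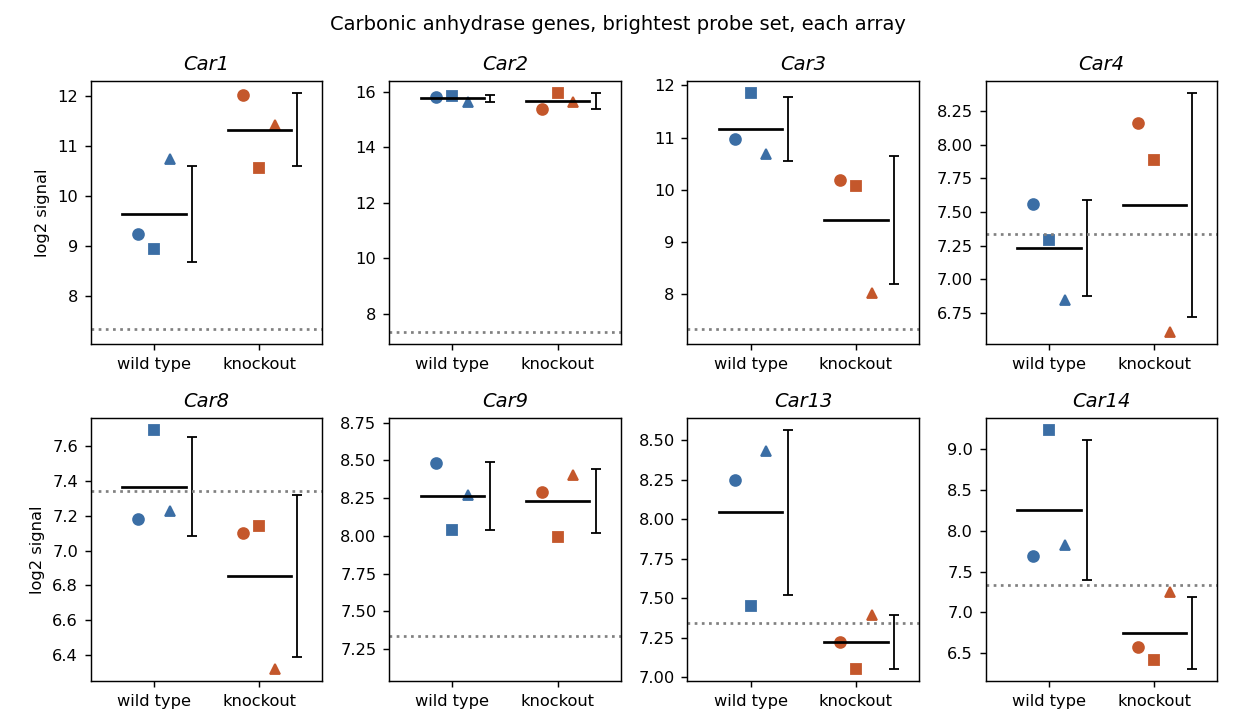
Log2 signal (vertical axis) of each carbonic anhydrase gene at its brightest probe set in the wild type and knockout pools, with circles, squares and triangles for replicates 1, 2 and 3, lines at the means, bars of 1 SD (n = 3) and a dotted line at the control level. Car3 and Car14 lie lower in every knockout pool, Car1 lies higher with overlapping groups, and the vertical scales differ between panels.

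Car1, of the red cell enzymes, read higher in knockout pools. Its signals were 609, 493 and 1707 in wild type replicates 1 to 3 and 4135, 1501 and 2727 in knockout replicates 1 to 3. Wild type replicate 3 lay above knockout replicate 2, so the groups overlapped, and the other 2 wild type pools lay below all knockout pools. The level was 9.64 ± 0.96 in wild type and 11.33 ± 0.74 in knockout pools (mean log2 signal ± SD, n = 3 each). The difference, knockout minus wild type, was 1.68 with a standard error (SE) of 0.59 and a 95% interval from 0.23 to 3.13 before any adjustment, or 3.21-fold. It did not pass over all genes (adjusted p = 0.534, and 0.212 with the trend, limma, in a range from 0.212 to 0.740 over 17 alternatives). Without 1 array it ran from 1.33, with wild type replicate 2 left out, to 2.23, with wild type replicate 3 left out. Car1 has 1 probe set on this array, so no second measurement is at hand.

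Car2 gave 58219, 59083 and 50495 in wild type and 43231, 63901 and 50934 in knockout pools. The highest and the lowest of the 6 values were both knockout pools, and the groups overlapped fully. The level was 15.77 ± 0.13 in wild type and 15.67 ± 0.28 in knockout, a difference of -0.10 (SE 0.21, 95% interval -0.62 to 0.42). These signals stood at 73.9% to 91.4% of the highest signal of each array, near the top of the scale, and whether they were limited by it was not tested. Slc4a1, its partner in bicarbonate transport, stood at 78.4% to 83.9% and differed by -0.22 (SE 0.20). The sign of the Car2 difference turned after median centring (0.012) and quantile normalization (0.056).

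Car3, the cytosolic form of low activity, read lower in knockout pools. Its brightest probe set gave 2022, 3714 and 1640 in wild type and 1160, 1077 and 259 in knockout pools. Every knockout pool lay below every wild type pool, and knockout replicate 3 was far below the other 2. The level was 11.17 ± 0.61 against 9.42 ± 1.22, a difference of -1.75 (SE 0.66, 95% interval -3.37 to -0.13, adjusted p = 0.552, limma). Leaving out knockout replicate 3 gave -1.05, and the other 5 such values ran from -2.13 to -1.41. The next probe set gave 805, 1452 and 682 in wild type and 520, 536 and 351 in knockout, again without overlap, a difference of -1.01 (SE 0.37). Of the remaining probe sets, both dim, 1 differed by 0.69 (SE 0.84), with its wild type values between 33.6 and 345, and 1, under the control level in both groups, by -0.55 (SE 0.48). The mean over all 4 probe sets gave -0.65. That of Car13 was -0.97, but the probe sets beside its brightest lie below the control level in every array (-0.25, SE 0.28, and -1.84, SE 1.16).

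Car13 read 305, 175 and 345 in wild type and 149, 133 and 168 in knockout pools at its brightest probe set. Wild type replicate 2 lay just above knockout replicate 3, and the others were further apart. The knockout mean was below the control level, so wild type is given as at least 1.605-fold higher, and the difference of -0.82 (SE 0.30, adjusted p = 0.548, limma) has no fold of its own. Without 1 array it ran from -1.12 to -0.63. The other Car13 probe sets differed by -0.25 (SE 0.28) and -1.84 (SE 1.16), each dim in both groups. The groups of the brightest probe set overlapped after either other scaling.

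At the cell surface, Car14 had signals of 207, 605 and 228 in wild type and 95.7, 85.2 and 152 in knockout pools. All 3 knockout values were under the control level and all 3 wild type values above it, with wild type replicate 2 more than doubling the other wild type values. Wild type was at least 1.88-fold higher. The difference was -1.51 (SE 0.48, 95% interval -2.69 to -0.33), and its adjusted p was 0.518 without and 0.283 with the trend (limma), in a range from 0.258 to 0.719 over 16 alternatives. Without wild type replicate 2 it was -1.02, and the other values without 1 array lay between -1.79 and -1.34. Car14 is read by 1 probe set, whose suffix marks probes that may match more than 1 transcript.

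Car9 gave 358, 263 and 308 in wild type and 313, 255 and 339 in knockout pools, all above the control level. The knockout values lay inside or just below the wild type range. The difference was -0.035 (SE 0.21), with a 95% interval from -0.56 to 0.49. Its sign turned after median centring (0.078) and quantile normalization (0.047). Car4 lay around the control level, with 188, 157 and 115 in wild type and 287, 237 and 97.4 in knockout pools. Here 2 of 3 knockout values exceeded all wild type values and the other was the lowest of all. The difference was 0.32 (SE 0.46), 0.80 without knockout replicate 3, 0.13 without wild type replicate 3 and 0.15 without knockout replicate 2. The second, dimmer Car4 probe set differed by 0.19 (SE 0.28).

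Car8, the member without enzyme activity, was dim at all 3 probe sets. The brightest gave 145, 207 and 150 in wild type and 137, 141 and 79.9 in knockout pools, a difference of -0.51 (SE 0.30) with only wild type replicate 2 above the control level. Without knockout replicate 3 it was -0.25. A second probe set differed by 0.35 (SE 0.72). The third gave 80.4, 67.5 and 55.3 in wild type and 11.2, 15.2 and 29.7 in knockout, a difference of -1.96 (SE 0.41, adjusted p = 0.404 over all probe sets, limma). As all its values lie below the control level, no fold is given for it.

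**Figure D2:**
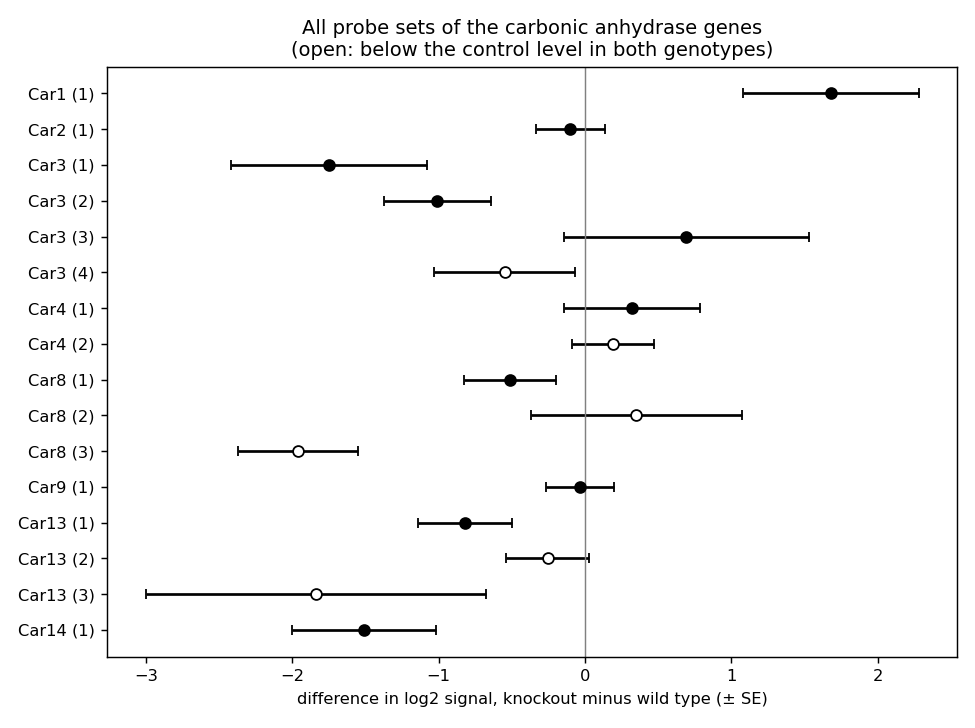
Difference in log2 signal, knockout minus wild type, with its SE (horizontal axis) for all 16 probe sets, numbered within a gene from the brightest; open points mark probe sets under the control level in both groups. The upper 2 probe sets of Car3 read -1.75 and -1.01 while the next one read 0.69, and Car1 stands alone at 1.68.

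Because arrays were scaled one by one, the 4 genes above the control level in both genotypes (Car1, Car2, Car3 and Car9) were also set against each other within each array. A ratio of 2 probe sets has no meaning as a level, but its shift between genotypes does not depend on a constant factor applied to an array. The Car1 to Car3 log2 ratio was -1.73, -2.91 and 0.06 in wild type and 1.83, 0.48 and 3.40 in knockout pools. All knockout values lay above all wild type values, a shift of 3.43 (exact permutation test, two-sided p = 0.1, the smallest this design allows; adjusted p = 0.15 over 6 pairs). Car1 to Car9 shifted by 1.72, Car2 to Car3 by 1.65 and Car3 to Car9 by -1.72, each also without overlap (exact permutation p = 0.1, adjusted 0.15). The shifts that hold Car3 rest on its brightest probe set and partly on knockout replicate 3. With the mean of all probe sets Car2 to Car3 shifted by 0.55 and Car3 to Car9 by -0.62 (exact permutation p = 0.5 each), and Car1 to Car3 by 2.34 (exact permutation p = 0.2). Without knockout replicate 3 the first pair of shifts was 0.96 and -0.92. Car1 to Car2 shifted by 1.78 with overlapping groups (exact permutation p = 0.2, adjusted 0.24), and Car2 to Car9 by -0.066 (0.8, adjusted 0.8). None of the 6 passed, and none could have.

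**Figure D3:**
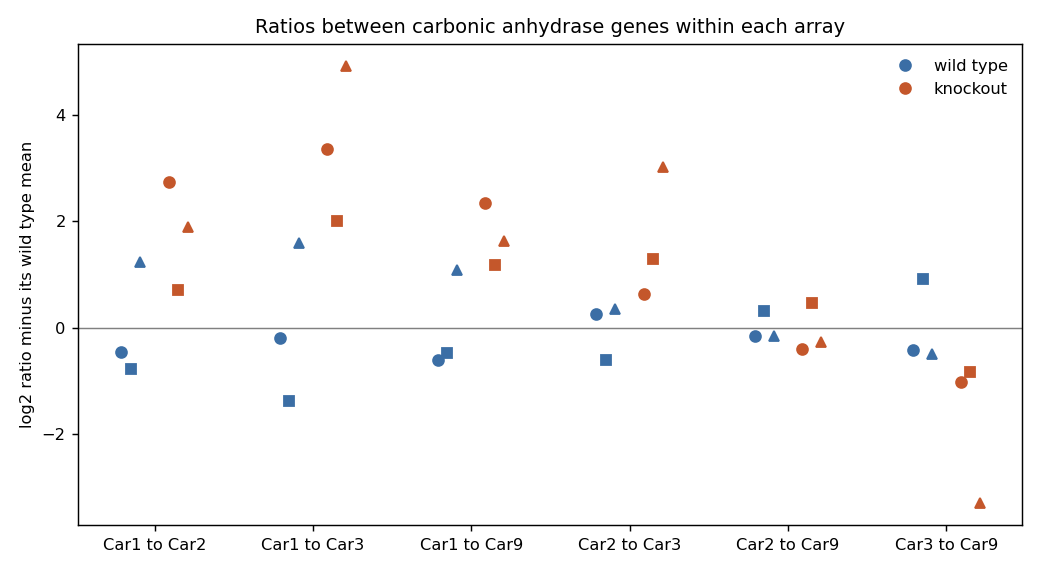
Log2 ratio of 2 carbonic anhydrase genes within an array minus the wild type mean of that ratio (vertical axis) for 6 pairs, wild type in blue and knockout in orange, with the marker shape giving the replicate number. Knockout values lie apart from wild type for Car1 to Car3, Car1 to Car9, Car2 to Car3 and Car3 to Car9, and mix with them for Car2 to Car9.

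Car13, Car1, Car3 and Car2 follow one another on chromosome 3 in the RefSeq gene table, with no other protein-coding gene between them. Their differences were, in that order, -0.82, 1.68, -1.75 and -0.10. Car1 read higher while both its neighbours, Car13 and Car3, read lower, and none of the 4 passed the test. Car14 lies elsewhere on chromosome 3, Car8 and Car9 on chromosome 4, and Car4 on chromosome 11.

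Markers of other liver cells shared some traits with these values and differed in others. Hepatocytes are the other large population of the fetal liver, and liver expresses Car3 and Car14. All 17 measured hepatocyte markers read lower in knockout, 12 with groups apart, with a median difference of -0.73 and 0 called in either fit. Of all 18193 genes 10570 read lower, and 9.85% lay lower with groups apart. The summed signal of the hepatocyte markers was 217590, 292634 and 170814 in wild type and 147056, 154429 and 161661 in knockout pools. Alb and Afp weighed most in it, at 59128 and 53039 in wild type replicate 1. Whether the top of the scale limited them was not tested. Wild type replicate 2 was the highest pool for the hepatocyte sum, for Car3 and for Car14, and every knockout pool was below every wild type pool in all 3. These traits were not particular to hepatocyte markers. They also held, by small margins, for the summed signal of 16 late erythroid genes. It was 424645.3, 424961.8 and 413886.5 in wild type and 325378.1, 410852.2 and 347781 in knockout pools. The sum of muscle and fat markers showed them as well (1216 to 1597 against 877 to 1147). Within groups the orders differed. From knockout replicate 1 to 3 the hepatocyte sum rose while Car3 fell (1160, 1077 and 259). Car14 was lower in wild type replicate 1 than in replicate 3 (207 and 228), where the hepatocyte sum was higher. Cps1, the first enzyme of the urea cycle, gave 948, 1194 and 594 against 397, 283 and 308. The part of these markers in the Car3 and Car14 values was not tested, and in such bulk RNA fewer cells of a type and less RNA per cell cannot be told apart.

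**Figure D4:**
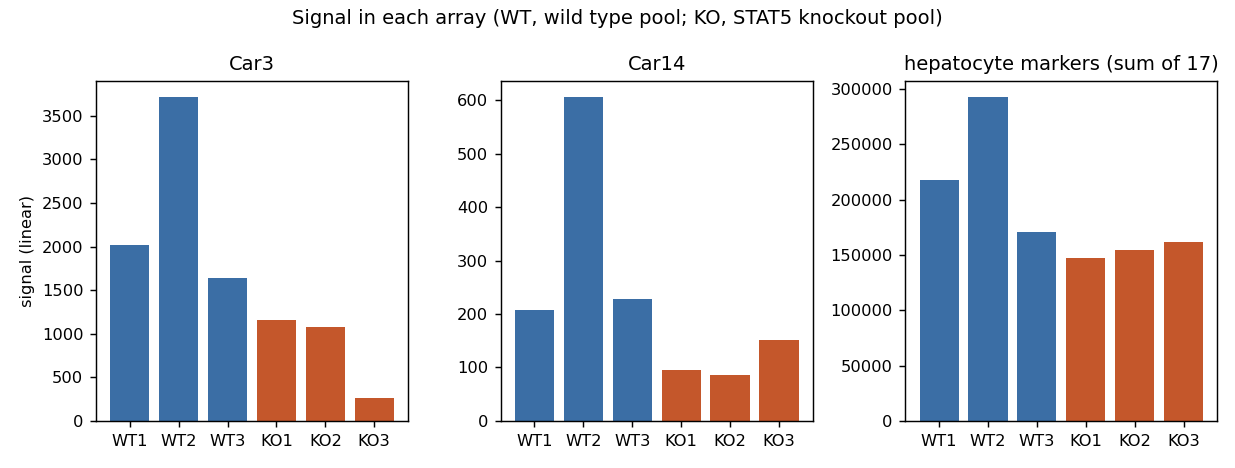
Linear signal (vertical axis, from 0) of Car3, of Car14 and of 17 hepatocyte markers summed, in each wild type (blue) and knockout (orange) array. In each panel the second wild type pool is highest and all knockout pools lie below all wild type pools, while the lowest knockout pool differs between panels.

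Other marker lists were read in the same way. Of 10 measured markers of skeletal muscle and fat, where Car3 is also abundant, 6 were dim in both groups, and their summed signal was 1216 to 1597 in wild type and 877 to 1147 in knockout. In this list 7 read lower and 3 higher. Acta1, skeletal muscle actin, gave 246, 284 and 255 against 81.8, 82.4 and 167, and Tnnt3, a troponin of fast muscle, differed by -1.36, whereas Myh8, a perinatal myosin gene chosen after its value was seen, differed by 1.73, the last 2 below the control level in both groups. Endothelial markers read lower in 13 of 15 (summed signal 4418 to 7592 against 4024 to 4779), with Lyve1, a receptor of sinusoidal endothelium, at least 4.04-fold higher in wild type. Endothelial sums overlapped, as did those for macrophage markers (20445 to 32895 against 26773 to 36891), megakaryocyte markers (5197 to 15904 against 5266 to 6638), granulocyte and mast cell markers (5544 to 9348 against 3093 to 9523) and mesenchymal markers (4141 to 7946 against 4018 to 7110). None of these markers was called in either fit. Their part in the carbonic anhydrase values was not tested.

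The list of other carbonic anhydrase family genes held 10 genes measured on the array. They were Car5a, Car5b, Car6, Car7, Car10, Car11, Car12, Car15 and the receptor tyrosine phosphatase genes Ptprg (0.27, dim in both groups) and Ptprz1 (-0.25). Of the 10, 4 were dim in both groups, with 5 lower and 5 higher in knockout, a median of -0.12 and 0 called. Car7, a cytosolic form, differed by -0.85 (SE 0.33) with overlapping groups. Car10, a form without enzyme activity, gave 1124, 1330 and 865 against 834, 748 and 639 at its brightest probe set. The difference was -0.57 (SE 0.23), and Car10 was the single member of this list without overlap. Its other probe set, dim in both groups, differed by 0.48 (SE 0.46) with overlapping groups.

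Genes that handle carbon dioxide, bicarbonate and protons beside these enzymes were measured for 22 of 26 listed. Of these 11 read lower and 11 higher in knockout, with a median of -0.003. Without the trend 0 were called, against 0.044% of all genes, and with it 1, against 0.44%. The gene called was Aqp1, the water channel of red cells that also passes carbon dioxide. Its signals were 2247, 2579 and 2838 in wild type and 13873, 20104 and 11016 in knockout pools, every knockout pool far above every wild type pool. It rose by 2.52 (SE 0.27, adjusted p = 0.0028 with the trend and 0.0957 without, limma). The other transport genes named here were chosen after their values were seen and did not pass. Of the band 3 membrane complex, Rhag, the Rh-associated gas channel, differed by -0.31 (SE 0.17), Epb42 by -0.39 (SE 0.19) and Ank1 by -0.32 (SE 0.18). Bsg, partner of the lactate and proton carrier Slc16a1, differed by -0.49 (SE 0.18), and Slc16a1 itself by 0.008 (SE 0.20). Clic1, an intracellular chloride channel protein, differed by 0.81 (SE 0.20).

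Of 16 measured late erythroid genes, 15 read lower in knockout, where 10570 of all 18193 genes did. In this list 0 were called, and the median was -0.17, against -0.08 for all genes. After median centring these medians were -0.058 and 0.028, and after quantile normalization -0.18 and -0.036. The list's members Gata1, Klf1 and Nfe2 are also in the list of regulators. The embryonic globin gene Hbb-bh1 (-1.18, SE 0.42) and the iron receptor gene Tfrc (-0.38, SE 0.18) had the smallest p of this list. Among 15 erythroid regulators 0 were called, with 8 lower and 7 higher. Gata1 and Klf1, which drive erythroid genes, differed by -0.14 and -0.01, and the sign of Klf1 turned after median centring (0.10). Ldb1, the partner of GATA1 in enhancer contacts, differed by 0.87 (SE 0.29). Myb, a factor of immature progenitors, gave 917, 809 and 367 in wild type and 2497, 2005 and 1675 in knockout pools. As for Car1, knockout replicate 1 was highest, but wild type replicate 3, the highest wild type pool for Car1, was the lowest for Myb. Ldb1 had the order of Car1 within both groups, with 1230, 700 and 1320 in wild type and 2117, 1747 and 1871 in knockout pools. The other regulators were not set against Car1 in this way, and no order was tested.

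Among hypoxia response genes, 18 of 20 were measured beside Car9. Of these 14 read higher in knockout, where 7623 of all 18193 genes did, with a median of 0.42. Groups were apart for 5 higher and 2 lower, against 7.02% and 9.85% of all genes. The summed signal of the list overlapped, at 81865 to 92471 in wild type and 71450 to 96757 in knockout pools. Knockout replicate 1 had the lowest sum of the 6 arrays. Without the trend 0 were called, where 0.044% of all genes were, and with it 1, where 0.44% were. That gene was Kdm3a, a histone demethylase gene, which rose by 1.06 (adjusted p = 0.0148 with the trend and 0.252 without, limma). Its signals were 1374, 1157 and 1089 in wild type and 2620, 2356 and 2565 in knockout pools, apart by more than the spread within either group. Car9, at -0.035, sat below the median of this list. P4ha1, a collagen prolyl hydroxylase gene, had the largest difference of the list at 1.80 (SE 0.37), and Hk2, a hexokinase gene, differed by 0.84 (SE 0.30), both without overlap and neither called. Chosen, like these, after their values were seen, Vegfa, the vascular growth factor gene, stood at 0.037 (SE 0.26) and Slc2a1, the red cell glucose transporter gene, at -0.38 (SE 0.18). Whether Car9 differs from the list was not tested.

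**Figure D5:**
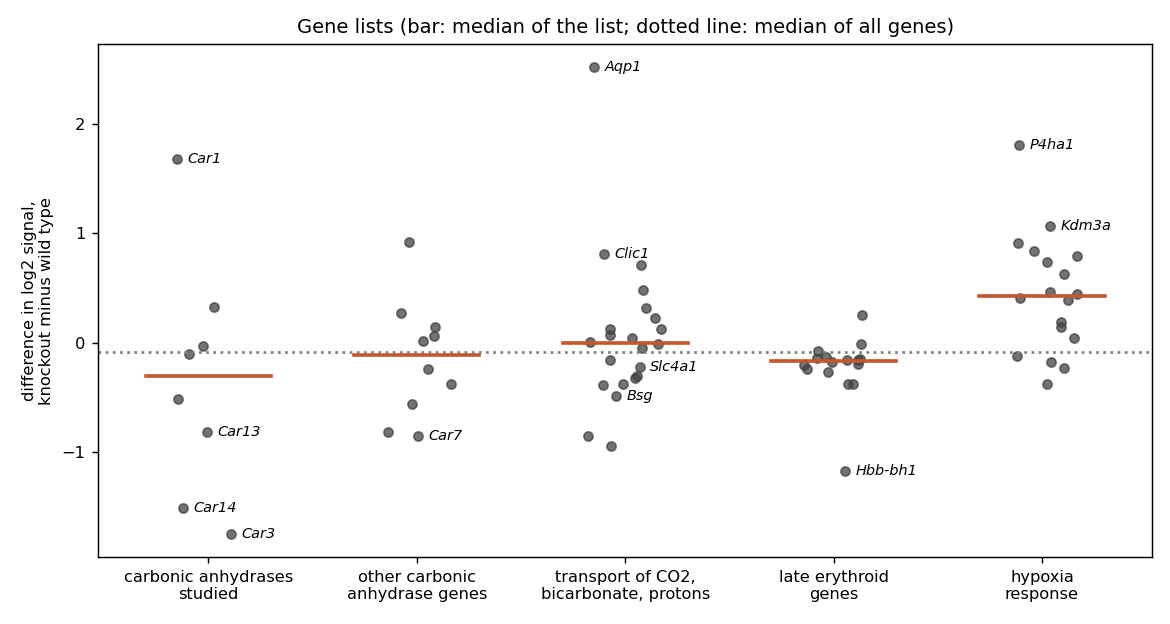
Difference in log2 signal, knockout minus wild type (vertical axis), of each measured gene of 5 lists, with the list's median as a bar and the median of all genes (-0.08) as a dotted line. Carbonic anhydrases spread from -1.75 to 1.68. Most late erythroid genes lie somewhat below the dotted line and Hbb-bh1 far below it, and most hypoxia response genes lie above it.

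The genes whose pattern over the 6 arrays was most like that of a carbonic anhydrase were sought among 9459 genes above the control level in both genotypes, by Pearson's r of median-centred log2 signals. All points share the same 6 arrays, and the values are a description. For Car1 the most alike were Ythdf3 (r = 0.996), Senp6 (0.993) and Fer (0.993), whose own differences were 0.35, 0.22 and 0.35. For Car3 they were Slamf1 (0.989), Ms4a3 (0.983) and Cyp2d13 (0.981), at -0.46, -0.40 and -0.50. Car2 ran with Nppc (0.986), Il1f5 (0.972) and Pde5a (0.963), and Car9 with Hsph1 (0.991), Gba2 (0.988) and Mrpl16 (0.988). For Car2 and Car9 the whole range over arrays was 0.51 and 0.65 on the log2 scale, against 3.35 for Car1 and 3.56 for Car3.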

How the data were processed

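RNA of 6 pools of Ter119-positive cells was hybridised to Affymetrix Mouse430_2 arrays, per the labels' protocols and the design text. The deposited intensity values are linear, and every array's mean is 500 once the lowest and highest 2% are dropped. RMA and Partek are named, without versions, in the submitters' processing notes. RMA usually gives log2 values with equal quantiles, and the deposited values are linear with unequal quantiles, so the notes and the values do not match. The scaling method was not given in the sources used here. Deposited intensities were taken to log2 without a pseudocount.

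Of 45101 probe sets, 64 controls were left out of the fits. Of 45037 tested, 34945 had 1 symbol in the platform annotation, 932 several and 9160 none. A gene is its probe set with the highest mean, and every probe set of the 8 genes was also tested. limma 3.58.1 (R 4.3.3) was fitted across all genes to compare knockout with wild type pools, and p-values were adjusted by Benjamini-Hochberg, with 0.05 as the threshold. Scripts were tested on simulated data. Where the dimmer group's mean lies under the control level, its values are raised to that level and the fold is "at least". Replicates are separate pools, and no array repeats another.

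The members and gene lists were chosen with earlier results of these data known. The rule for named list genes took those that passed either fit, otherwise the 3 with the smallest p of the transport and hypoxia lists or up to 2 of another list, and always Slc4a1, Aqp1, Gata1, Klf1, Ldb1, Stat5a and Stat5b. Genes outside it are marked as chosen after their values were seen. Alternatives were a mean-variance trend, that trend plus robust estimation, the methods' t-test, quantile normalization, median centring, leaving out the dimmest 50%, a block for the replicate number, array weights, 32 added to the signal, the mean of all probe sets, no probe sets ending in _x_at, _s_at or _a_at, and each array left out.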

Additional observations from a re-analysis of the deposited data

How the results depend on the processing

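The count of carbonic anhydrase genes called was 0 in all 17 alternative settings, and that of probe sets 0 in all 16 run. The count over all genes, 8 as reported, was 80 with the mean-variance trend, 66 with the trend and robust estimation, 4 with the methods' t-test, 15 with quantile normalization, 3 with median centring, 20 without the dimmest 50%, 15 with array weights, 3 without shared probe sets, 0 with the replicate block and from 0 to 0 without any 1 of the 6 arrays. The titles' replicate numbers pair no samples by their values (correlation of same-number deviations between 0.017 and 0.029), and the block changed no call of a carbonic anhydrase gene.

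Car1, Car3, Car4, Car13 and Car14 kept their sign wherever they could be fitted. The differences near 0 did not. Car2 turned to 0.056 with quantile normalization, 0.012 with median centring and 0.032 without knockout replicate 1, in a range from -0.25 to 0.032 without 1 array. Car9 turned to 0.047 with quantile normalization, 0.078 with median centring, 0.075 without wild type replicate 1 and 0.083 without knockout replicate 2, in a range from -0.15 to 0.083, and Car8 to 0.35 without shared probe sets, where another probe set stands for the gene. The Car2 to Car9 ratio shift ran from -0.33 to 0.097 without 1 array, turning sign without wild type replicate 2 (0.087) and without knockout replicate 1 (0.097) or 3 (0.036), and was 0.0093 with quantile normalization. The cause was not tested. The other 5 ratio shifts kept their sign, but with the mean of all probe sets Car2 to Car3 was 0.55 and Car3 to Car9 -0.62, their groups no longer apart. Car4 and Car8 fall away without the dimmest 50%, or Car14 without shared probe sets, and have no value there. Signals at or under the control level limit Car4, Car8, Car13 and Car14, and whether the top of the scale limits Car2 was not tested.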
